A study of Mus musculus with 9 samples.

Results

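The Teddm genes encode transmembrane epididymal proteins, and 4 of them, Teddm1a, Teddm1b, Teddm2 and Teddm3, were found among the 32195 genes of a single-cell RNA-seq count table of the mouse epididymis. They were chosen by name, as a family, after earlier results of these data had shown Teddm2 among the leading genes of a principal-cell cluster, so their levels across segments and cell populations are given as a description, with no test. Whether they changed with age was tested.

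The epididymis is the coiled duct in which sperm leaving the testis mature and are stored. Sperm pass through the caput (head), the corpus (body) and the cauda (tail) in turn, and principal cells, the main cell type of the duct lining, secrete and take up proteins in each segment under the control of androgens and, in the proximal caput, of factors arriving from the testis. Teddm proteins belong to the TMEM45 family of proteins that cross the membrane several times. Several of the genes were found as transcripts abundant in the epididymis, as were the human HE (human epididymis) genes, and what the proteins do in the duct is little known.

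The series held 9 libraries from untreated C57BL/6 mice. At postnatal day 42 (P42), taken by the study as the first wave of maturing sperm, 1 pool of 5 mice gave 1 library each of caput, corpus and cauda. At day 56 (P56), 2 pools of 5 mice each gave the same 3 segments, so every library holds the cells of several animals and the libraries of 1 pool come from the same mice. Cells were captured on a microfluidic chip with molecular identifiers (UMIs), and the digested tissue was strained and treated to lyse red blood cells, with no sort.

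The table held 44869 barcodes, of which 42087 passed the filters on genes, UMIs and mitochondrial share, with 19248247 to 40879086 UMIs per library. Cells were gated by marker lists. The principal gate took 24966 cells, 59.3% of those kept, and 8 of its 10 markers were highest there, but the median ratio to the next population was only 1.34, against 6.81 to 191 for the lists of the other populations, so the principal gate is the least sharply marked. The P42 cauda library stood apart, with 345 principal-gated cells out of 4590 and 2320 gated as fibroblasts, while the other libraries held 1812 to 3863 principal-gated cells. Levels are given as CPM, the UMIs of a gene in every 1000000 UMIs of the cells named.

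In the GRCm38.p6 genome, RefSeq places 3 of the genes within 43519 bp of chromosome 1. Teddm2 lies at chr1:153849542-153851195 on the minus strand, Teddm1b at chr1:153874345-153876871 and Teddm1a at chr1:153891646-153893060, both on the plus strand. Teddm3 lies elsewhere, at chr16:21152659-21153944 on the minus strand. In the GENCODE M21 annotation each gene has a coding transcript of 1 exon, with 305, 306, 260 and 294 codons before the stop in Teddm1a, Teddm1b, Teddm2 and Teddm3. Teddm2 has 2 further transcripts, of which Teddm2-202 is spliced from exons on either side of the genes Teddm1b and Teddm1a and Teddm2-203 lies beyond them, and neither has an exon in common with those genes.

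The genes differ in how alike they are. The coding sequences of Teddm1a and Teddm1b were identical at 87.3% of aligned positions, against 57.0% for Teddm1a and Teddm2, 57.5% for Teddm1b and Teddm2, and 54.2% to 54.9% for Teddm3 with any of the other 3. The TMEM45 relatives Tmem45a, Tmem45a2 and Tmem45b lay at 49.6% to 54.5% from the 4 genes. The 60 coding bases that are most alike in all 4 begin at coding base 643 of Teddm1a, 646 of Teddm1b, 646 of Teddm2 and 649 of Teddm3, and are shown here with the 35 bases that all 4 share in capitals.

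Teddm1a: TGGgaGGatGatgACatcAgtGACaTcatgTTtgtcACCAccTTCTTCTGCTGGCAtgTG
Teddm1b: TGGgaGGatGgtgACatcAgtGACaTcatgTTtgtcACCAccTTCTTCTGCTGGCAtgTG
Teddm2: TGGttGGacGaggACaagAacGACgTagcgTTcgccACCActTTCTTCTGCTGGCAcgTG
Teddm3: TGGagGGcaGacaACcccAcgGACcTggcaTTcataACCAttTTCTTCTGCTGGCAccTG

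Within these 60 bases Teddm1b matched Teddm1a at 59 positions, Teddm2 at 44 and Teddm3 at 38. The longest stretch that Teddm1a and Teddm1b have in common is 159 bases, and 188 of the 1268 words of 50 bases in the Teddm1a transcript (14.8%) also occur in Teddm1b. Reads lying wholly within such stretches cannot be assigned to 1 of the 2 genes, so that levels of the pair are uncertain. The study's reads were longer than 50 bases, so the share of words overstates the share of full-length reads affected. The last 500 bases of the Teddm1b transcript, where reads primed at the poly(A) tail fall, held none of these words, and those of Teddm1a held 54 of 451. No word of 50 bases was common to any other pair.

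The 250 bases before each RefSeq start site are shown because 3 of the genes share a segmental pattern. Capitals mark AGAACA or its reverse complement TGTTCT, a hexamer of steroid hormone response elements, AGGAAG or CTTCCT, the hexamer bound by ETS factors of the PEA3 group, and TATAAA or TTTATA. The windows are chr1:153891396-153891645 for Teddm1a, chr1:153874095-153874344 for Teddm1b, chr1:153851196-153851445 for Teddm2 and chr16:21153945-21154194 for Teddm3, each written 5′ to 3′ on the strand of its gene.

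Teddm1a: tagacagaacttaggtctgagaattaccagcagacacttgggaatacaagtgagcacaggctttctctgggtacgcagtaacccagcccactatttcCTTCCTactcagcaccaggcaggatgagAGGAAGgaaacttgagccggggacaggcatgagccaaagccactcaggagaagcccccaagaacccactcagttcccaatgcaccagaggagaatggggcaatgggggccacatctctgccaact
Teddm1b: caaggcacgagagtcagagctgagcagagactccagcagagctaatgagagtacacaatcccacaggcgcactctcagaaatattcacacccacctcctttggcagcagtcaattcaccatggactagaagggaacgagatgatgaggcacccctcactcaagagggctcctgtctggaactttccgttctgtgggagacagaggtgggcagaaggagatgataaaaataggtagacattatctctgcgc
Teddm2: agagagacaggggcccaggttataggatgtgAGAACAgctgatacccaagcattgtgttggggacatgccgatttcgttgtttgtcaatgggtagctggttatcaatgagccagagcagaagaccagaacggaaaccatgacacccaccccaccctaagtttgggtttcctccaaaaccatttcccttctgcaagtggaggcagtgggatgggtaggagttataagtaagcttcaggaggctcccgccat
Teddm3: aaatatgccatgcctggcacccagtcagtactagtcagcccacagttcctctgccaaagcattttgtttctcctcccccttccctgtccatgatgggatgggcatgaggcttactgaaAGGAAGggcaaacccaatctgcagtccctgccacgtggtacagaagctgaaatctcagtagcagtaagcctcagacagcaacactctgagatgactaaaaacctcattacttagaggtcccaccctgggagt

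AGAACA was found once, in Teddm2 with its first base at -219, and 16.1% of 32851 RefSeq promoter windows of the same length hold it on either strand. The ETS hexamer was found at -153 and -125 in Teddm1a and at -132 in Teddm3, and 29.5% of all windows hold it. TATAAA, held by 12.4% of windows, was in none of the 4, and Teddm1b held none of the 3 hexamers. The windows resembled each other little, with 49.6% to 56.2% identical positions and no common stretch over 9 bases. These are matches of letters only.

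Teddm1a, Teddm1b and Teddm2 were almost confined to the caput and Teddm3 was hardly detected. Of the UMIs in kept cells, 433436 of 434176 for Teddm1a (99.8%), 15254 of 15361 for Teddm1b (99.3%) and 394148 of 395504 for Teddm2 (99.7%) came from the 3 caput libraries. Teddm3 had 6 UMIs in 5 of 42087 cells, with 0 in the caput, which allows a level of up to 0.193 CPM in the principal-gated cells of the least deeply sampled caput library (3 counts).

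Teddm1a stood at 5090 CPM in the principal-gated cells of the P42 caput, and at 6282 and 5347 in those of P56 replicates 1 and 2. The corpus libraries, in the same order, gave 8.23, 5.82 and 1.78, and the cauda libraries 5.00, 1.96 and 2.27. All 3 caput libraries were above all other libraries, by 619- to 3003-fold over the corpus and 1017- to 3198-fold over the cauda of the same mice. The caput mean was 5573 ± 627 (SD, n = 3), which placed Teddm1a between rank 19 and rank 24 among the genes detected in each caput library.

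Teddm2 stood at 4430, 5355 and 5211 in the caput. Its corpus levels were 17.4, 17.3 and 3.56, and its cauda levels 6.82, 3.63 and 3.68. The caput was again above every other library, by 254- to 1463-fold over the corpus and 649- to 1474-fold over the cauda of the same mice. The caput mean of 4999 ± 498 (SD, n = 3) placed it at rank 23 to 25 among the genes detected.

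Teddm1b, the near copy of Teddm1a, stood at 223, 216 and 145 in the caput (195 ± 43.0, SD, n = 3; rank 570 to 851). All these values are of principal-gated cells. In those of the corpus Teddm1b gave 5, 63 and 3 UMIs, or 0.548, 3.03 and 0.141 CPM, and in those of the cauda 0, 0 and 9 UMIs. Against the corpus of the same mice the caput was higher by 407-fold in P42 and 71.3-fold in P56 replicate 1, and the ratio in P56 replicate 2 was 1034 on 3 corpus UMIs, whose exact 95% interval is 0.029 to 0.411 CPM. Of the 71 UMIs in principal-gated corpus cells, 63 came from 1 library, P56 replicate 1. Against the 2 cauda libraries without a UMI in principal-gated cells the caput was at least 164- and 1941-fold higher (3 counts per library). In P56 replicate 2, with 9 cauda UMIs, it was 548-fold higher. The P42 cauda held 11 Teddm1b UMIs in kept cells, all of them outside the principal gate.

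**Figure D1:**
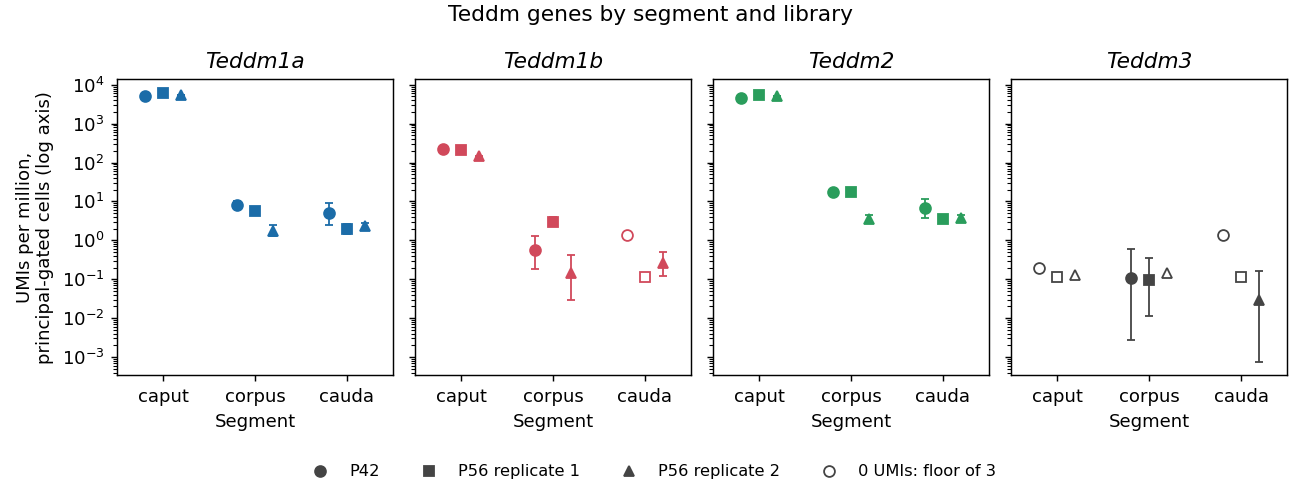
Level of each Teddm gene in principal-gated cells of the 9 libraries, in CPM on a log axis, by segment; symbols give the pool of mice, bars the exact Poisson 95% interval of the count, and open symbols libraries with 0 UMIs, drawn at the level of 3 counts. Teddm1a and Teddm2 sit between 4430 and 6282 in the caput and at 17.4 or lower in corpus and cauda, Teddm1b sits between 145 and 223 in the caput, and Teddm3 has at most 2 UMIs in the principal-gated cells of any library.

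To set these values among all genes, a quasi-likelihood fit across the 3 segments (edgeR, blocked by pool) called 6657 of 17227 genes, 38.6% (adjusted p under 0.05 and a range of at least 1 on the log2 scale), and 2731 of these were highest in the caput. On the same scale the difference of corpus from caput was -10.15 for Teddm1a, -7.32 for Teddm1b and -8.73 for Teddm2, and that of cauda from caput was -10.85, -10.09 and -10.00. By size of range these were ranks 14, 57 and 59 of the genes tested, where the median range was 0.90. Teddm3 did not pass the filter on low counts. The fitted cauda value of Teddm1b rests on 9 UMIs. Fits with and without the P42 pool called 6657 and 7157 genes.

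The HE-clone genes, found like the Teddm genes as epididymal transcripts, did not share 1 segment. All 7 were called: 4 were highest in the caput (Spag11b, Adgrg2, Spag11a and Wfdc2), 1 in the corpus (Npc2, a cholesterol-binding protein) and 2 in the cauda (Cd52 and Eddm3b). Spag11b, a beta-defensin-like secreted protein, stood at 25961 ± 5220 CPM in the caput (SD, n = 3) and 28.0 ± 14.8 in the corpus, and Adgrg2, an adhesion G protein-coupled receptor, at 6053 ± 671 and 31.4 ± 16.9. Cd52, a surface glycoprotein that sperm acquire in the duct, ran the other way, from 693 ± 268 in the caput to 41227 ± 8219 in the cauda. The median range of the 7 was 2.45 on the log2 scale. Spag11a, placed in the caput by the fit, stood at 183 ± 66.7 there and 202 ± 120 in the corpus, and was not called without P56 replicate 1. Over all kept cells without a gate, 5 of the 7 were called, without Eddm3b and Wfdc2. That fit called fewer genes in all, 4822 against 6657.

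Of the TMEM45 relatives, which belong to the same protein family, both tested members were called and were highest in the cauda, with Tmem45a at 6.4 ± 1.64 CPM there and 0.756 ± 0.154 in the caput, and Tmem45b at 5.38 ± 1.57 and 1.09 ± 0.173 (SD, n = 3). The difference from caput to cauda was 3.27 for Tmem45a and 2.71 for Tmem45b on the log2 scale (edgeR, adjusted p = 4.94e-05 and 0.000295). Tmem45a2 had 17 UMIs, at 0.125, 0.189 and 0.0098 CPM in caput, corpus and cauda, and was not tested. Without a gate, where 4822 genes in all were called against 6657 with it, only Tmem45a was called.

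Of the androgen genes described here, Srd5a1 and Srd5a2, which encode steroid reductases, were called. Srd5a2, which makes dihydrotestosterone, fell from 175 ± 15.7 CPM in the caput to 31.1 ± 10.0 in the cauda (log2 difference -2.31, edgeR, adjusted p = 8.53e-05), and Srd5a1, which does the same, was highest in the corpus at 47.9 ± 0.857. Fkbp5, an androgen-induced co-chaperone, stood at 146 ± 13.4, 141 ± 25.9 and 103 ± 58.1 in caput, corpus and cauda (SD, n = 3; edgeR, adjusted p = 0.228).

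On chromosome 1 the nearest genes in the table are Rgsl1, 2201 bp before the cluster, and Glul, 6869 bp after it. Glul, which encodes glutamine synthetase, had 623 ± 140 CPM in caput, 145 ± 51.4 in corpus and 112 ± 8.35 in cauda (SD, n = 3; edgeR, adjusted p = 2.88e-05). Rgsl1 was called too, on low levels of 0.523 ± 0.148 CPM in caput, 0.304 ± 0.149 in corpus and 0.022 ± 0.020 in cauda (SD, n = 3; log2 difference of cauda from caput -3.66, edgeR, adjusted p = 0.00677). Beside Teddm3 on chromosome 16, Ephb3 had 0.467 ± 0.243 CPM in the caput (edgeR, adjusted p = 0.0668) and Gm16863 0.014 ± 0.025. The other nearest genes, Gm41974, Gm18184, Gm38440 and Mir8114 on chromosome 1 and Gm6557, Gm9697, Gm18771 and Mir7680 on chromosome 16, were not analysed here. The outermost exons of the longer Teddm2 transcripts share 67 to 134 bases with Glul on the opposite strand, and 556 bases of the Teddm1a exon are also annotated as Gm38352 on the opposite strand. Whether strand was used in counting is not given in the sources used here, so reads in these bases could have been lost or misassigned. Gm38352 itself was at 0.0851 to 0.451 CPM in the caput.

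Within the caput, Teddm1a and Teddm2 were highest in one class of principal cells and Teddm1b in another. Principal-gated caput cells were split by which of 3 pairs of regional genes gave most of the UMIs of all 6 genes: Cst12 and Lcn8, known from the most proximal caput, Lypd8 and Defb18, and Lcn5 and Defb30, of which Lcn5 is known from the more distal caput. The Cst12 and Lcn8 cells made up 63.4%, 68.6% and 67.5% of the principal-gated cells of the 3 libraries (P42, then P56 replicates 1 and 2), the Lypd8 and Defb18 cells 17.9%, 9.85% and 6.62%, and the Lcn5 and Defb30 cells 12.7%, 17.3% and 23.7%. The rest had no leading pair. The classes are ranges along a gradient, and 21 to 130 cells of a class lay near the threshold in each library. Their leading genes differ between classes by construction, and the Teddm genes were not used.

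Teddm2 followed the Cst12 and Lcn8 cells. It stood at 6495, 7239 and 7138 CPM there, at 709, 768 and 541 in the Lypd8 and Defb18 cells, and at 798, 1238 and 906 in the Lcn5 and Defb30 cells. The Cst12 and Lcn8 cells thus held 93.4%, 93.6% and 95% of all Teddm2 UMIs of principal-gated cells. In every library the other 2 classes lay below the lowest of the non-principal populations, so no expression of Teddm2 is read from their level.

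Teddm1a had its highest level in the same cells, at 6774, 7983 and 7108, but was less sharply divided. The Lypd8 and Defb18 cells as a class had 2971, 3811 and 2698, and the Lcn5 and Defb30 cells 777, 1299 and 751. The median cell of the Lypd8 and Defb18 class held 10, 10 and 8.5 UMIs of Teddm1a at a median depth of 7484, 6380 and 7390 UMIs, so that the class level lies above that of its median cell, and 67 of 333, 89 of 376 and 39 of 204 of its cells lay near the threshold. The class level of the former lay above all 8 non-principal populations in P42, below 1 of 8 in P56 replicate 1 and below 4 of 9 in P56 replicate 2, and the latter below all of them. Of the UMIs of Teddm1a and Teddm2 together, Teddm2 gave 48.9%, 47.6% and 50.1% in the Cst12 and Lcn8 cells but only 19.3%, 16.8% and 16.7% in the Lypd8 and Defb18 cells.

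Teddm1b was arranged the other way round. It stood at 628, 750 and 665 CPM in the Lypd8 and Defb18 cells, where 91.3%, 94.9% and 95.6% of cells had a UMI of it. In the Cst12 and Lcn8 cells it stood at 111, 122 and 78.4, within the range of the non-principal populations, and in the Lcn5 and Defb30 cells at 169, 227 and 165. The Lypd8 and Defb18 class, though 6.62% to 17.9% of the cells, held 49.8%, 35.6% and 31.3% of the Teddm1b UMIs of the principal-gated cells in the 3 libraries, and the more numerous Cst12 and Lcn8 cells 31.8%, 39.0% and 37.4%. In all 3 libraries its level in these cells was above that in every other class and in every non-principal population.

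**Figure D2:**
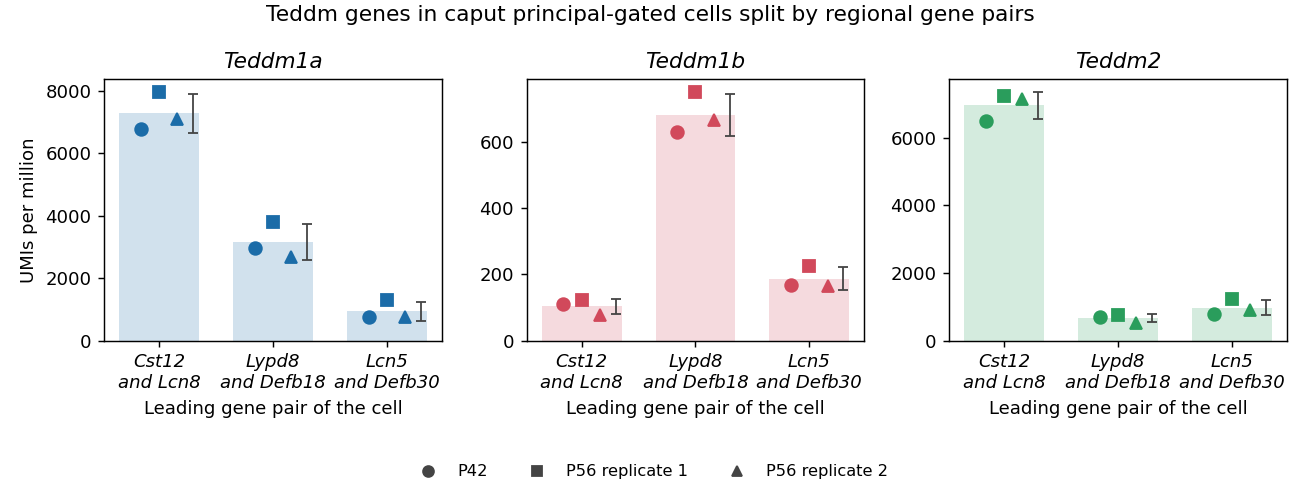
Level of Teddm1a, Teddm1b and Teddm2, in CPM, in caput principal-gated cells classed by their leading pair of regional genes; points are the 3 caput libraries, bars their mean and error bars the SD (n = 3). Teddm2 drops from 6495 or more in the Cst12 and Lcn8 cells to 1238 or less in the other 2 classes plotted, the class level of Teddm1a in the Lypd8 and Defb18 cells is 2698 to 3811 (with a median of 8.5 to 10 UMIs per cell), and Teddm1b is highest there at 628 to 750.

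The same opposition was seen cell by cell. Across caput principal-gated cells, the Pearson correlation of log values between Teddm1a and Teddm2 was 0.65 (mean of the 3 libraries, 0.61 to 0.70), that between Teddm1a and Teddm1b -0.25 (-0.26 to -0.24), and that between Teddm2 and Teddm1b -0.55 (-0.56 to -0.53). With every cell thinned to 1000 UMIs the values were smaller, at 0.51 to 0.61, -0.15 to -0.12 and -0.33 to -0.28 in the same order. Teddm1a and Teddm1b, which are next to each other and most alike in sequence, were not the pair that varied together. Cells of 1 library share its depth and free RNA, and these values are a description.

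At an equal depth of 1000 UMIs per cell, Teddm1a was detected in 87.3%, 90.6% and 82.2% of caput principal-gated cells, Teddm2 in 79.6%, 84% and 78.2%, and Teddm1b in 18%, 17.0% and 11.8%. Teddm1b was found in 14.2%, 13.4% and 8.31% of the cells with a Teddm2 UMI and in 32.8%, 35.9% and 24.1% of those without. Without thinning, Teddm1a reached 99.1%, 99.2% and 96.4% of cells, with a median of 28, 32 and 33 UMIs per cell and up to 248. The exact 95% intervals of these shares, which cover counting error only, ran from 85.7% to 88.8% for Teddm1a and from 16.3% to 19.8% for Teddm1b in the P42 caput at 1000 UMIs.

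Among 19 regional genes examined in caput principal-gated cells, those closest to Teddm1a across cells were Rnase10 (mean r 0.86), Cst11 (0.86) and Lcn9 (0.85), and those closest to Teddm2 were Adam28 (0.85), Lcn8 (0.82) and Lcn9 (0.80). Of the 19, Crisp1 was lower in the caput (312 CPM) than in the corpus (16752) and the cauda (23292). Teddm1b was closest to Defb18 (0.54) and Lypd8 (0.46), and had negative values with Adam28 (-0.52), Lcn8 (-0.47) and Cst12 (-0.45). Lcn5 had -0.67 with Teddm1a, -0.49 with Teddm2 and 0.16 with Teddm1b. Over all 7268 genes with at least 500 UMIs, the closest to Teddm1a were Cstdc2 (0.88), Defb25 (0.87), Rnase10, Pate5 (0.86) and Cst11, and to Teddm2 Defb48 (0.88), Adam28, Lcn8, Actg2 (0.81) and Lcn9. For Teddm1b they were Slc38a5 (0.56), an amino acid transporter, Ceacam10 (0.54), Defb18, Lcn12 (0.51) and Pate6 (0.48).

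Over the 72 sums of a gated population in a library, which are dominated by the step from caput to the other segments, 9230105E05Rik and Gm36974 were among the 5 closest genes of all 3 members. The highest values were those of Lcn8 (0.98 with Teddm1a and 0.98 with Teddm2), 9230105E05Rik (0.98 with Teddm1a, 0.99 with Teddm1b and 0.98 with Teddm2) and Gm36974, with Cst11 and Ly6g5b for Teddm1a, Lcn10, Mup6 and Clpsl2 for Teddm1b, and Ly6g5c and Gm5916 for Teddm2. The points share libraries and any free RNA in them.

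In the caput, UMIs of the 3 genes were found in every gated population. Teddm1a stood at 1742, 2748 and 2164 CPM over all cells outside the principal gate, and Teddm2 at 1638, 2476 and 2269. Basal cells gave 1334, 1819 and 946 for Teddm1a, and clear and narrow cells, which acidify the lumen, gave 1806, 2579 and 2295. Erythroid cells, which should not express the gene, gave 2433, 3547 and 3248, with a UMI in 96.4% to 100% of them at median depths of 3730 to 5733 UMIs. Over 25 pairs of population and library the ratio to the principal-gated cells ran from 0.18 to 0.76 for Teddm1a, with a median of 0.45, from 0.18 to 0.77 for Teddm2 (0.50), and from 0.19 to 1.38 for Teddm1b (0.54).

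For 19 regional genes of principal cells the median ratio over the same populations lay between 0.39 for Ros1 and 0.57 for Lypd8, with 0.47 in the middle, and the Teddm genes were within that range. The mixture of the members was also nearly the same inside and outside the principal gate: Teddm2 gave 46.5%, 46.0% and 49.4% of the UMIs of Teddm1a and Teddm2 in principal-gated cells, and 48.5%, 47.4% and 51.2% in all other cells of the same library. Teddm1b gave 2.29%, 1.82% and 1.36% of the 3 genes' UMIs inside, and 2.57%, 1.97% and 1.71% outside. The ratio did differ between populations, with basal cells at 0.18 to 0.29 for Teddm1a and erythroid cells at 0.48 to 0.61. No expression outside the principal gate is read from these UMIs, and the parts of free RNA, doublets and principal cells missed by the gate were not tested.

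**Figure D3:**
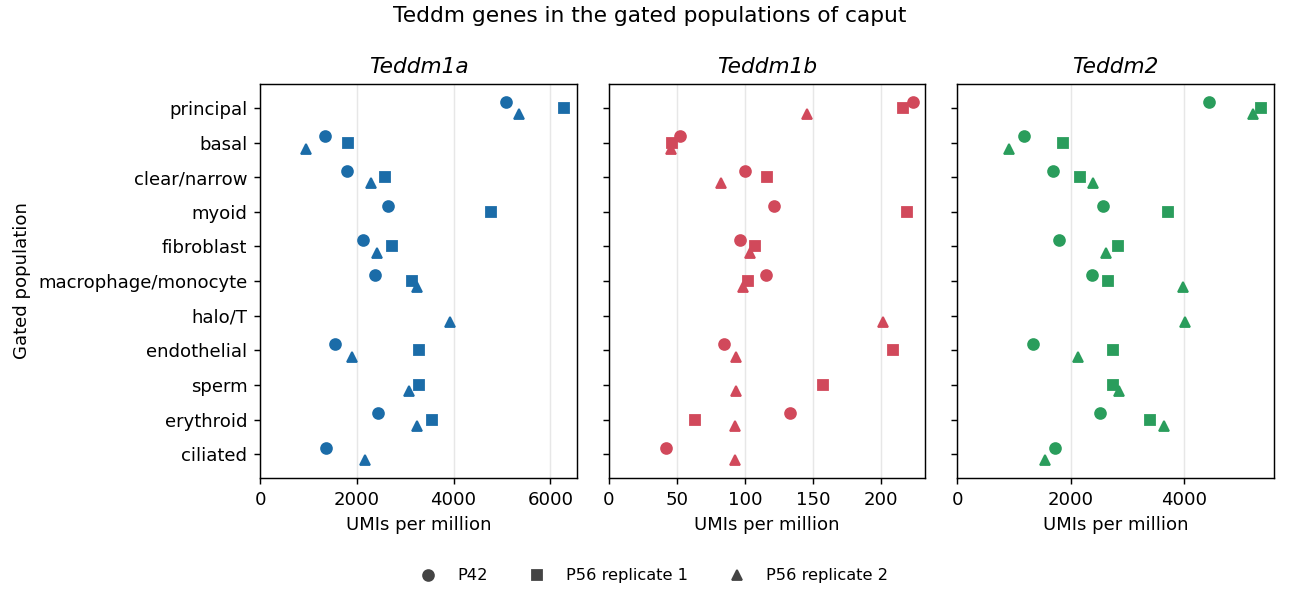
Level of Teddm1a, Teddm1b and Teddm2 in each gated population of the 3 caput libraries with at least 20 cells, in CPM (axes start at 0); symbols give the pool of mice. For Teddm1a and Teddm2 the principal-gated cells lie above all other populations of their library, with the others at 0.18 to 0.77 of their level, and for Teddm1b 2 of 25 values lie above the principal-gated cells.

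In corpus and cauda the few UMIs of Teddm1a and Teddm2 were found inside and outside the principal gate. Corpus principal-gated cells had 17.4, 17.3 and 3.56 CPM of Teddm2, and all other corpus cells 12.0, 18.2 and 2.87. For Teddm1a the principal-gated cells had 8.23, 5.82 and 1.78 and the others 7.60, 8.16 and 3.06. In the P42 cauda the principal-gated cells had 5.00 CPM of Teddm1a and 6.82 of Teddm2, below the 10.5 and 13.1 of the other cells, most of them fibroblast-gated. The 2 P56 cauda libraries gave 1.96 and 2.27 against 2.72 and 2.88 for Teddm1a, and 3.63 and 3.68 against 2.49 and 5.61 for Teddm2. Teddm1b differed in 1 corpus library, P56 replicate 1, with 63 UMIs and 3.03 CPM in principal-gated cells and 3 UMIs and 0.627 CPM in the others. No principal-gated corpus or cauda cell had more than 8 UMIs of any of the 3.

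These UMIs were not spread evenly. In each corpus library a small class of principal-gated cells carried Lcn5 and Defb30 at 10000 or more CPM, a threshold set after seeing the data: 127 of 1812 cells in P42, 452 of 3395 in P56 replicate 1 and 75 of 3398 in P56 replicate 2. Teddm2 stood at 80.6, 86.4 and 18.3 CPM in them (61, 192 and 9 UMIs), against 11.7, 9.04 and 3.21 in the remaining principal-gated cells. Teddm2 was detected in 28.3% (exact 95% interval 20.7% to 37.0%), 25.9% (21.9% to 30.2%) and 10.7% (4.72% to 19.9%) of these cells, and in 4.69%, 5.20% and 1.99% of the others. Their median depth was 4496, 3761 and 5421 UMIs, against 3351, 5707 and 5249, so that in P56 replicate 1 they were the shallower class. For Teddm2 this is above the level of all other corpus cells in each of the 3 libraries. The UMIs were not particular to this class: corpus principal-gated cells with a Teddm2 UMI also had more of the proximal pair Cst12 and Lcn8, at 109, 53.0 and 41.6 CPM against 19.2, 20.9 and 9.96 in cells without. For Teddm1a the pair stood at 143, 99.7 and 46.1 CPM against 21.0, 20.8 and 10.2. In the cauda the cells with a Teddm2 UMI had 113, 47.9 and 46.5 CPM of it against 15.2, 10.0 and 11.2.

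Teddm1b was found mainly in the same cells in 1 library. In P56 replicate 1, 52 of its 63 UMIs were in the Lcn5 and Defb30 cells, at 23.4 CPM against 0.592 in the others, and 7.52% (5.27% to 10.4%) of these cells had a UMI. In P42 it was 3 of 5 UMIs, and in P56 replicate 2 0 of 3, where 0 of 75 cells allows a share of up to 4.80% of cells with a UMI, a limit on detection and not on cells that hold the transcript. Teddm1a was divided less in P42 and P56 replicate 1, at 18.5 and 10.8 CPM in the Lcn5 and Defb30 cells (14 and 24 UMIs) against 7.30 and 5.22. In P56 replicate 2 it stood at 8.13 against 1.63, on only 4 UMIs in these cells. In caput principal-gated cells over the same threshold of the pair, Teddm2 stood at 984, 1506 and 1224 CPM and Teddm1b at 161, 219 and 156. Cells of a corpus or cauda library whose barcode a caput library also holds numbered 9 to 41 per library and had at most 2 UMIs of Teddm1a and 2 of Teddm2.

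**Figure D4:**
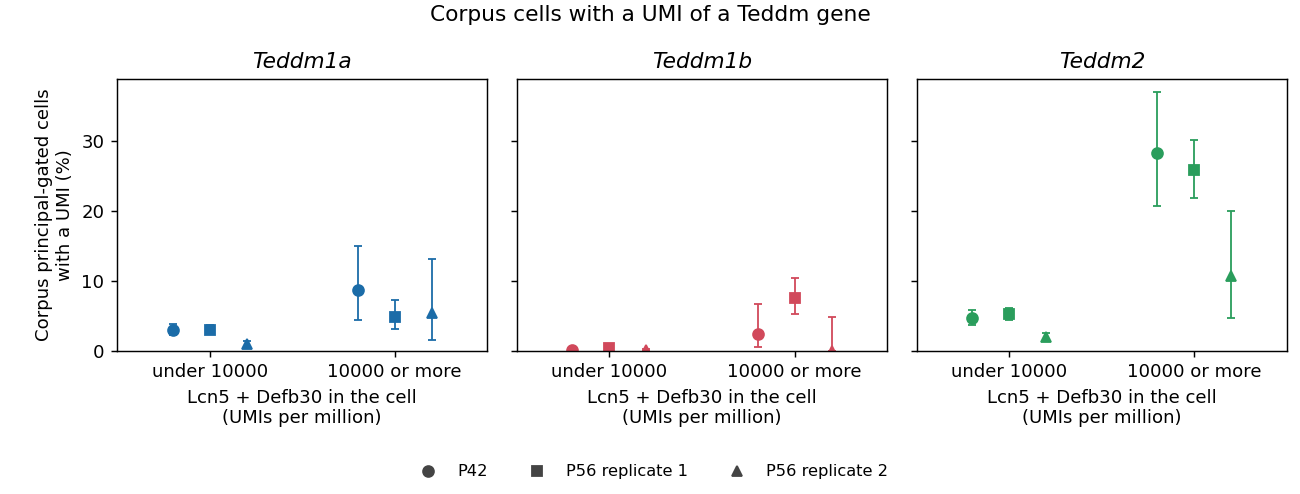
Percentage of corpus principal-gated cells with at least 1 UMI of Teddm1a, Teddm1b or Teddm2, for cells with under 10000 and with 10000 CPM or more of Lcn5 and Defb30 together; symbols are the 3 pools and bars exact 95% binomial intervals. Teddm2 is found in 10.7% to 28.3% of the Lcn5 and Defb30 cells and in 1.99% to 5.20% of the others.

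The P56 and P42 libraries were compared to ask whether the genes changed between the first wave of sperm and adulthood, in a fit over all 9 libraries that gives each segment and age its own mean. With 1 library at P42, the spread comes from the P56 pairs and is assumed to hold at P42. No member was called in any segment by edgeR or DESeq2, and the unadjusted p of the 8 edgeR comparisons ran from 0.249 to 0.978. In the caput, where 97 of 18516 genes (0.524%) were called, the log2 difference of P56 from P42 was 0.51 ± 0.45 (SE) for Teddm1a (edgeR, adjusted p = 0.623), 0.56 ± 0.62 for Teddm2 (adjusted p = 0.697), and 0.02 ± 0.61 for Teddm1b (adjusted p = 0.997). Both P56 libraries were above the P42 library for Teddm1a and Teddm2 and both below it for Teddm1b in plain CPM. With the replicate block the counts of calls rose to 322 in the caput and 648 in the corpus, and no member was among them.

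In the corpus, where 295 genes (1.59%) were called, the changes were -0.66 ± 0.53 for Teddm1a (edgeR, adjusted p = 0.535), -0.29 ± 0.66 for Teddm2 (0.854) and 1.97 ± 1.75 for Teddm1b (0.578). Each depended on the P56 libraries: without P56 replicate 1 the values were -1.70, -1.78 and -1.42 in the same order, and without P56 replicate 2 they were -0.084, 0.41 and 2.86. In the cauda, with 1254 genes (6.77%) called and 345 principal-gated cells at P42, they were -0.58 ± 0.84 for Teddm1a (0.711) and -0.24 ± 1.02 for Teddm2 (0.909). Teddm1b had 0 UMIs in these cells at P42 and too few for a fold. No difference between segments passed the threshold for the 3 (difference of the log2 changes between caput and corpus 1.16 ± 0.69 for Teddm1a, 0.85 ± 0.90 for Teddm2 and -1.95 ± 1.87 for Teddm1b; edgeR, adjusted p = 0.636, 0.797 and 0.771). The fit behind these differences had no term for the pool, so segments of the same mice were treated as independent. With plain library totals in place of TMM scaling, the median of all genes moved from 0.00 to -0.30 in the caput, from 0.03 to -0.44 in the corpus and from 0.17 to -0.44 in the cauda. In the caput the change of Teddm1a moved to 0.19 and that of Teddm2 to 0.25, and that of Teddm1b turned to -0.31. In corpus and cauda Teddm1a moved to -1.12 and -1.23 and Teddm2 to -0.74 and -0.90, and Teddm1b in the corpus to 1.51.

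**Figure D5:**
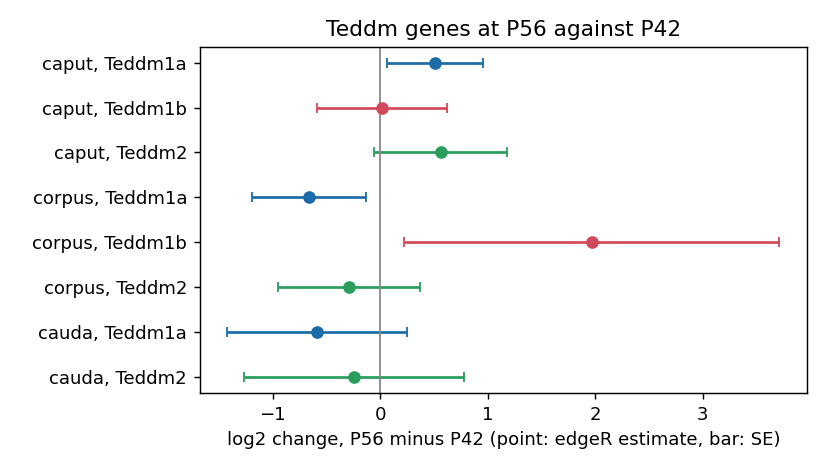
Change of Teddm1a, Teddm1b and Teddm2 from P42 to P56 in principal-gated cells of each segment, on the log2 scale; points are edgeR estimates, bars 1 SE, and the line marks no change. Teddm1b in the cauda is not plotted, as it had 0 UMIs in these cells at P42. The 8 estimates plotted lie between -0.66 and 1.97, and none passed the threshold.

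The 7 HE-clone genes had adjusted p-values of 0.0670 to 0.850 with age in the caput and 0.0554 or more in the corpus (edgeR), and 3 of 7 were called in the cauda, all higher at P56: Wfdc2 by 2.18 ± 0.56 on the log2 scale (adjusted p = 0.0402), Npc2 by 1.37 ± 0.22 (0.00896) and Cd52 by 1.19 ± 0.23 (0.0164). Of all genes tested in the cauda 6.77% were called, 807 of 1254 of them higher at P56. With plain library totals the median of all genes there moved from 0.17 to -0.44, so the size of these changes depends on the scaling. In the caput the value of Cd52 was 1.28 ± 0.23 (adjusted p = 0.0670). No TMEM45 relative was called. Of the androgen genes described here, Srd5a2 was called in the cauda, higher at P56 by 1.52 ± 0.22 (adjusted p = 0.00625). The P42 cauda library, where 2320 of 4590 cells were fibroblast-gated, is the only P42 library behind these cauda values, and library and age cannot be told apart there.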

How the data were processed

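Single cells of caput, corpus and cauda from mice at P42 (1 pool) and P56 (2 pools) were profiled on a microfluidic chip. The authors trimmed reads with fastp, extracted barcodes with UMI-tools, aligned to GRCm38.p6 with STAR 2.7.3a and counted exons with featureCounts; the deposited values are raw UMI counts per gene and cell, with no normalization. Libraries held 23114756 to 50655384 UMIs before filtering, and their depth sets the counting intervals (exact Poisson and Clopper-Pearson, 95%), which cover counting error only.

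Cells with 300 to 4000 genes, at most 20000 UMIs and under 50% mitochondrial UMIs were kept. A cell was gated to a population other than principal if that marker list alone passed its threshold with at least 3 markers, and as principal if none of those lists passed and principal markers gave at least 100 of every 10000 UMIs. The 2577 cells passing several lists stayed unassigned, and no doublet caller was run. Thresholds were set after seeing the marker distributions and not the Teddm genes. UMIs were summed per library over principal-gated cells and tested with edgeR 4.0.16 (quasi-likelihood, TMM, Benjamini-Hochberg over all genes tested; the SE is the log2 change divided by the square root of F). DESeq2 1.42.0 was an alternative. In the segment fit the pool of mice was a block, as its 3 libraries come from the same mice. In their deviations from the mean of the segment, 7 of 9 same-pool pairs and 2 of 18 other pairs of libraries correlated over 0.1. These deviations keep the difference of age, so pool and age cannot be told apart for the P42 libraries. They also cancel within a segment, so the 2 kinds of pair are not independent. Shares were computed after thinning cells to 1000 UMIs.

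In counts simulated on these libraries, 197 of 200 genes changed by 2 on the log2 scale were called between segments (16550 genes tested) and 181 of 200 between ages in the caput (17225 genes). Every simulated gene had the same dispersion (0.0192) and no pool effect. These shares therefore do not give the power to call a change of the members. Genes named in the text are the 4 members, the HE-clone, TMEM45, androgen and regional genes, the 3 nearest genes on each side, and per member the 5 genes with the highest correlation. Gm38352 was named in addition, after its overlap with Teddm1a was seen. Some members of the androgen list are not reported here. The members and lists were chosen with earlier results of these data known. P-values of the segment fit rest on the spread left after the pool block. Those of the age fit rest on the spread between the 2 P56 pools of mice.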

Additional observations from a re-analysis of the deposited data

Results flagged for a closer look

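The filters took the P42 caput library from 50655384 to 29779501 UMIs. The caput libraries of P56 replicates 1 and 2 went from 33881990 to 31671092 and from 37040481 to 35192243. Whether this affects the comparison of ages was not tested. The filters left out 772 barcodes of the P42 caput library, against 87 to 498 in the other libraries, and these barcodes, which the comparisons do not use, held Teddm UMIs. Teddm1a stood at 4013 CPM in them, Teddm2 at 3152 and Teddm1b at 238. All kept cells of that library, ungated like these barcodes, had 3487, 3093 and 159 in the same order. The principal-gated cells among them had 5090, 4430 and 223. In the left-out barcodes of P56 replicates 1 and 2 the caput gave 6311 and 5163 for Teddm1a.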

How the results depend on the processing

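None of the 8 age results of members was called under any of the alternatives, and 56 of 64 values kept their sign. Those that turned were Teddm1b in caput (-0.31 with TMM factors set to 1, -0.022 with the P56 pool as a replicate block, -0.38 to 0.34 without a P56 replicate), Teddm1b in corpus (-1.42 to 2.86 without a P56 replicate), Teddm2 in corpus (0.087 without a gate, -1.78 to 0.41 without a P56 replicate) and, with the thresholds of the other populations lowered by 50 percent, Teddm1a and Teddm2 in cauda (0.22 and 1.41). Teddm1a and Teddm2 in caput kept their sign but not their size, at 0.19 and 0.25 with TMM factors set to 1 and 0.89 and 0.92 without a gate. Values without a P56 replicate have no test. The number of genes called between segments was 6657 and stayed between 4468 and 7757, with 5985 without the replicate block, which changed no call of the 3 gene lists, and 4468 to 4969 without a P56 replicate. Genes called with age in caput numbered 97 and became 180 with DESeq2, 18 with no filter, 373 with TMM factors set to 1, 748 without a gate and 322 with the replicate block. In corpus 295 became 71, 1278, 2242 and 648 with no filter, TMM factors set to 1, no gate and the block, and in cauda 1254 became 2170 with TMM factors set to 1 and 6879 without a gate. With TMM factors set to 1, calls higher at P56 were 61 of 373 in caput, 65 of 1278 in corpus and 162 of 2170 in cauda, against 48 of 97, 112 of 295 and 807 of 1254. The cause was not tested. Without a gate the caput level was 4472 for Teddm1a and 4053 for Teddm2, with the cells outside the gate included. The share of caput principal-gated cells with a UMI rose with depth by construction, from 86.7% to 95.1% at 3000 UMIs and 98.2% unthinned for Teddm1a, from 80.6% to 92.9% and 98% for Teddm2, and from 15.6% to 31.7% and 45.2% for Teddm1b. Leaving out 1 caput library gave 5219 to 5814 for Teddm1a, 181 to 220 for Teddm1b and 4821 to 5283 for Teddm2. The gate at lower thresholds, the fits without the P42 pool and the levels without 1 caput library were chosen after seeing the data. A gate that allows no marker of another population was not run, as it left 1, 0 and 3 principal-gated cells in the P42 caput, corpus and cauda. Depth limits Teddm3 everywhere and Teddm1b outside the caput.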
